A study of Homo sapiens with 6 samples.

Results

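The ErbB receptors and their EGF-family ligands were described in MiaPaCa2, an established human line of pancreatic ductal adenocarcinoma cells, grown as clones. The group was defined by name and held 10 genes, the receptors EGFR, ERBB2, ERBB3 and ERBB4 and the ligands AREG, EREG, HBEGF, TGFA, NRG1 and BTC, out of 26334 gene symbols in the count table. All 10 were listed there, and 7 passed the filter on low counts. Messenger RNA was sequenced in 6 libraries, 3 from clones recorded as ZEB1-deleted by CRISPR-Cas9 editing (ZEB1-KO) and 3 from clones with the wild-type gene (WT). ZEB1 is a zinc-finger repressor of epithelial genes. Cells of both groups had been electroporated with the Cas9 and GFP plasmid pSpCas9-2A-GFP, and every clone was isolated by sorting for GFP. They were grown in DMEM with 10% fetal bovine serum, and 2000 lysed cells went into each SMART-Seq2 library, a method that amplifies full-length cDNA. Each library stands for a single clone, so that differences between clones were part of the spread within a group. The difference between groups holds both effects of the deletion and differences between the clones sequenced.

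ErbB receptors are tyrosine kinases of the cell surface that act in pairs. Their ligands are made as precursors anchored in the membrane, from which metalloproteases cut the active growth factor. EGFR binds most of these ligands, ERBB2 has no known ligand and serves as a partner, ERBB3 binds neuregulins but has a weak kinase, and ERBB4 binds neuregulins and some ligands of EGFR. The paired receptors recruit adaptors that switch on RAS, the MAP kinases and PI3 kinase. In the pancreas of mice, Egfr signalling is known for its part in the shift of acinar cells towards a duct-like state.

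The libraries held 18909305 to 36798770 counts in ZEB1-KO clones and 26242238 to 42876693 counts in WT clones. A floor of 3 counts corresponded to 0.0687 to 0.150 CPM, that is, counts scaled to a common library size with edgeR's TMM factors, and covers counting error only. ZEB1 stood at 3.34, 3.46 and 11.5 CPM in ZEB1-KO replicates 1, 2 and 3, against 34.0, 31.2 and 33.6 CPM in WT replicates 1, 2 and 3. The third ZEB1-KO clone thus kept the most ZEB1 RNA of its group, and the groups did not overlap (log2 fold change -2.43, SE 0.49, adjusted p = 0.0930 from edgeR's quasi-likelihood test). The adjusted p was 0.00056 with edgeR's likelihood ratio test, 3.3e-05 with DESeq2 and 0.00039 in the authors' deposited edgeR results. The quasi-likelihood test thus did not call the edited gene itself. Of 10 markers of pancreatic ductal and epithelial cells, 5 reached 1 CPM in some library, KRT7, EPCAM, CDH1 and CFTR were among those that did not, and CFTR had no counts. The summed level of these markers was 4094 to 5318 CPM in ZEB1-KO clones and 2188 to 3293 CPM in WT clones. Markers of islet cells had no counts, and the summed levels of acinar, endothelial and blood cell markers were at most 7.81 CPM in any library. Fibroblast markers summed to 0.766 to 60.0 CPM in ZEB1-KO clones and 0.710 to 18.4 CPM in WT clones, with 1 of 8 markers above 1 CPM, and DCN, LUM and FAP had no counts. In bulk RNA, fewer cells with a transcript and less of it per cell cannot be told apart.

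Levels of different genes were compared per transcript length, on the TPM values deposited by the authors, which list the 7 members that passed the filter. EREG, which encodes epiregulin, a ligand of EGFR and ERBB4, was the most abundant member, with a mean of 62.9 TPM ± 9.05 (SD, n = 6 libraries), above 83.7% of the 11013 genes listed. BTC, which encodes betacellulin, another ligand of EGFR and ERBB4, followed at 10.4 TPM ± 3.54. The lowest EREG value, 50.5 TPM, lay above the highest BTC value, 15.99 TPM. The BTC values overlapped those of HBEGF, which reached 7.01 TPM in WT replicate 1, while BTC was as low as 5.94 TPM in ZEB1-KO replicate 1. HBEGF at 3.76 TPM ± 1.93, ERBB2 at 3.34 TPM ± 1.34 and AREG at 2.91 TPM ± 0.684 (SD, n = 6 each) were in the same range and did not differ beyond their spread. EGFR averaged 1.72 TPM ± 0.793 and ERBB3 0.430 TPM ± 0.148 (SD, n = 6 each), and the highest ERBB3 value, 0.641 TPM, lay below the lowest EGFR value, 0.666 TPM. The EGFR range overlapped that of AREG. AREG enters these comparisons and the sums below with an uncertain count, since the genome build used carries a near-identical second copy of it. ERBB3 ranked above 2.51% of the genes listed. Ligand transcripts thus outnumbered receptor transcripts in every library, with summed TPM of the 4 ligands at 10.3 to 21.7 times the summed TPM of the 3 receptors in ZEB1-KO clones and 13.8 to 14.8 times in WT clones.

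**Figure D1:**
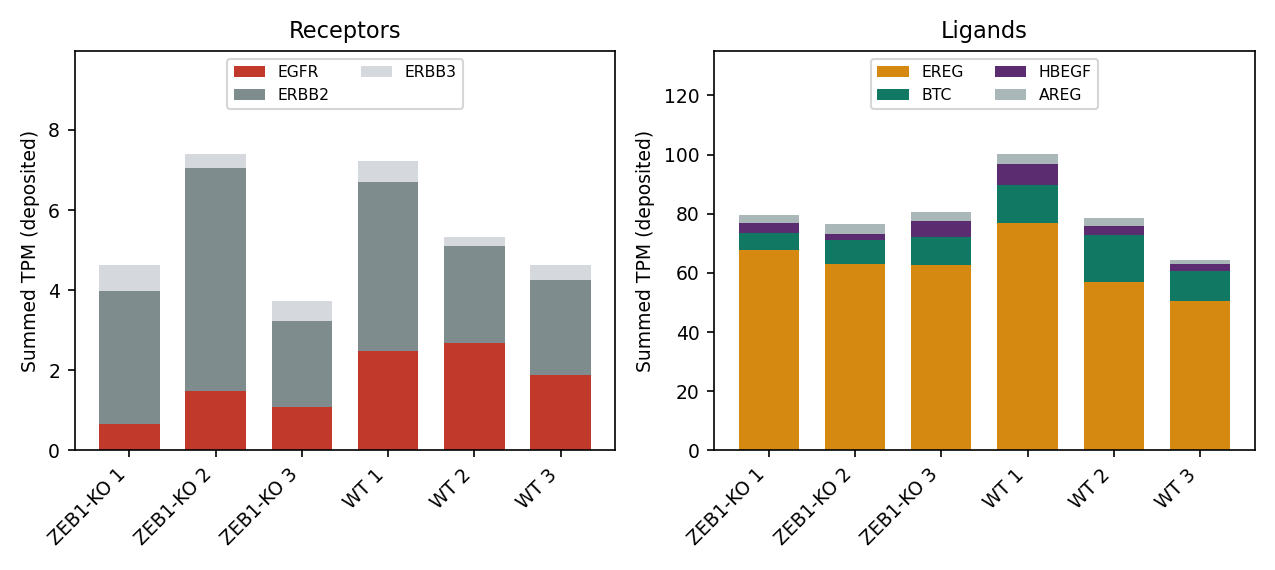
Stacked bars of the deposited TPM of 3 receptors (left panel) and 4 ligands (right panel), with libraries on the x axis and summed TPM on the y axis. EREG fills 72.3% to 84.9% of every ligand bar, in which the AREG segment rests on an uncertain count. The EGFR segment is smaller in each ZEB1-KO library (0.666 to 1.48 TPM) than in each WT library (1.89 to 2.68 TPM).

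None of the members passed an adjusted p below 0.05 in edgeR's quasi-likelihood test of ZEB1-KO against WT clones, over 13659 genes of which 0.176% passed (0.117% higher and 0.0586% lower in ZEB1-KO clones). At an unadjusted p below 0.05 there were 2 of 7 tested members, EGFR and BTC, both lower in ZEB1-KO clones, beside 17.7% of all tested genes (9.64% higher and 8.04% lower). DESeq2 called 1 member, EGFR, as lower, beside 7.12% of the genes to which it gave an adjusted p (4.34% higher and 2.78% lower). The likelihood ratio test of edgeR called the same member, beside 4.52% of all tested genes (2.75% higher and 1.76% lower). Of the tested members, 2 lay above and 5 below 0 on the log2 scale and their median was -0.19, while 50.6% of all tested genes were negative and their median was -0.0082.

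**Figure D2:**
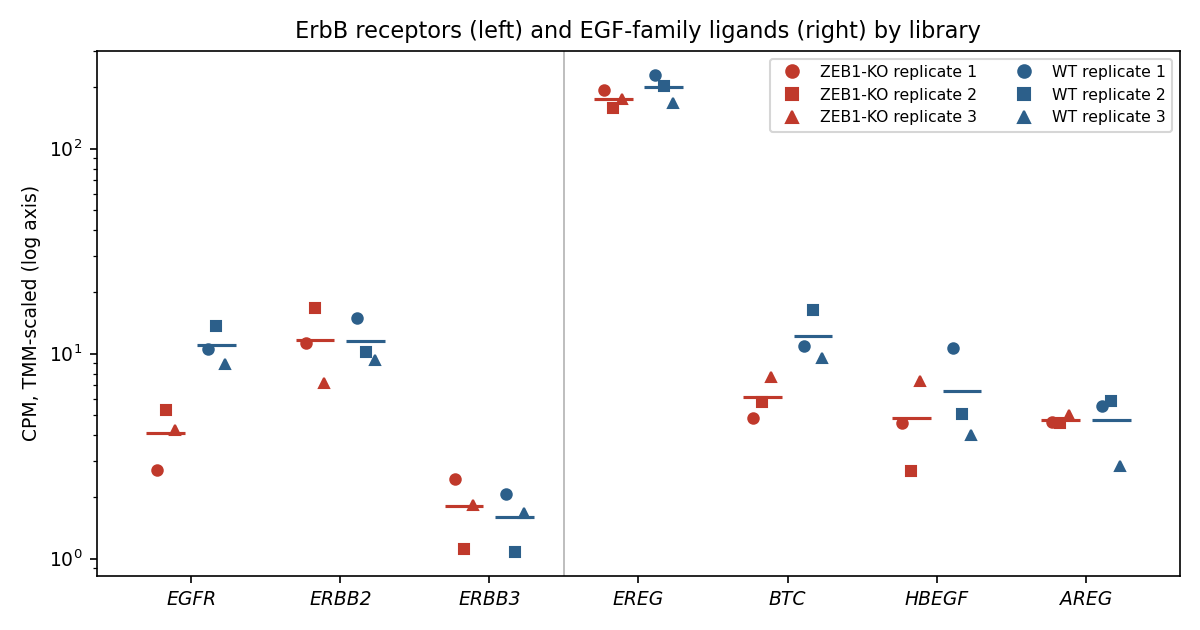
Level of each tested member in each library, in CPM on a log axis, with the 3 ZEB1-KO clones left of the 3 WT clones; symbols mark the replicate number and horizontal lines the group mean. EGFR and BTC are the members whose groups do not overlap.

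EGFR, the receptor for most ligands of the family, had the largest log2 fold change in size among the 7 tested members. It had 54, 214 and 137 counts in ZEB1-KO replicates 1, 2 and 3, against 462, 441 and 219 counts in WT replicates 1, 2 and 3. Scaled to library size these were 2.69, 5.29 and 4.26 CPM in ZEB1-KO clones and 10.6, 13.6 and 8.87 CPM in WT clones. Every ZEB1-KO clone lay below every WT clone. The mean was 4.08 CPM ± 1.31 in ZEB1-KO and 11.02 CPM ± 2.40 in WT clones (SD, n = 3 each), a 2.69-fold lower level. The log2 fold change was -1.43, its SE 0.34 and its 95% interval -2.196 to -0.66, and the adjusted p of 0.110 from the quasi-likelihood test did not pass 0.05. The adjusted p was 0.0196 with edgeR's likelihood ratio test and 0.0041 with DESeq2. The authors' deposited table gives EGFR a log2 fold change of -1.43 (adjusted p = 0.0192), beside 4.75% of its genes past 0.05 (2.82% higher and 1.92% lower). Leaving out 1 library at a time gave log2 fold changes of -1.66 to -1.20 with adjusted p-values of 0.131 to 0.281. On the log2(TPM + 1) scale, which compresses low levels, the log2 fold change was -0.71, and on log2(TPM + 0.1) it was -1.11. On these scales the median over all genes was 0.23 and 0.27, against -0.0082 in the quasi-likelihood test. The part of the epithelial marker level, which was higher in each ZEB1-KO library, in the EGFR difference and in that of BTC was not tested. EGFR-AS1, an antisense gene within EGFR, had 0, 1 and 0 counts in ZEB1-KO replicates 1, 2 and 3, against 4, 2 and 0 counts in WT replicates 1, 2 and 3. No source used here says whether the counting used strand, and reads shared by both genes were not measured.

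ERBB2, the partner receptor without a known ligand, overlapped fully between groups. It had 225, 673 and 230 counts in ZEB1-KO replicates 1, 2 and 3, against 653, 331 and 230 counts in WT replicates 1, 2 and 3. In CPM it stood at 11.2, 16.6 and 7.16 in ZEB1-KO clones and 14.96, 10.2 and 9.32 in WT clones, so that both the highest and the lowest value came from ZEB1-KO clones. The log2 fold change was 0.021, with a 95% interval of -0.80 to 0.84 (adjusted p = 0.979, quasi-likelihood test), and its sign changed in 5 of 18 alternatives.

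ERBB3, the receptor with a weak kinase, was the least abundant of the tested members. It had 49, 45 and 59 counts in ZEB1-KO replicates 1, 2 and 3, against 90, 35 and 41 counts in WT replicates 1, 2 and 3. The means were 1.80 CPM ± 0.667 in ZEB1-KO and 1.60 CPM ± 0.494 in WT clones (SD, n = 3 each), with a log2 fold change of 0.15 and a 95% interval of -0.83 to 1.14 (adjusted p = 0.878, quasi-likelihood test). ERBB4, the fourth receptor, had 2 counts in ZEB1-KO replicate 3 and 0 counts in every other library of either group. It was thus not detected above the floor of 3 counts, and no difference could be measured.

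The balance between EGFR and ERBB2 was looked at after the values had been seen. EGFR made up 14.4%, 20.1% and 28.9% of the summed TPM of EGFR, ERBB2 and ERBB3 in ZEB1-KO replicates 1, 2 and 3, against 34.5%, 50.5% and 40.7% in WT replicates 1, 2 and 3. The ratio of EGFR to ERBB2 TPM was 0.201, 0.266 and 0.498 in ZEB1-KO clones and 0.592, 1.11 and 0.797 in WT clones, without overlap. ERBB2 was therefore the more abundant receptor in all 3 ZEB1-KO clones and in WT replicates 1 and 3. The summed receptor TPM overlapped, at 3.73 to 7.39 in ZEB1-KO and 4.64 to 7.23 in WT clones.

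Among the ligands, EREG was high in every clone. It had 3867, 6386 and 5617 counts in ZEB1-KO replicates 1, 2 and 3, against 10032, 6588 and 4119 counts in WT replicates 1, 2 and 3. This came to 192.9, 157.7 and 174.9 CPM in ZEB1-KO clones and 229.8, 203.2 and 166.9 CPM in WT clones, and the groups overlapped. The log2 fold change was -0.19 (SE 0.20, 95% interval -0.66 to 0.28; adjusted p = 0.659, quasi-likelihood test), the narrowest interval of the tested members. On the deposited TPM the means were 64.4 TPM ± 2.86 in ZEB1-KO and 61.4 TPM ± 13.8 in WT clones (SD, n = 3 each), so that the sign depended on the scale.

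BTC had the largest log2 fold change in size among the 4 tested ligands. It had 97, 236 and 247 counts in ZEB1-KO replicates 1, 2 and 3, against 476, 529 and 234 counts in WT replicates 1, 2 and 3. In CPM these were 4.84, 5.83 and 7.69 in ZEB1-KO clones and 10.9, 16.3 and 9.48 in WT clones. All 3 ZEB1-KO clones lay below all 3 WT clones, with a small gap between ZEB1-KO replicate 3 and WT replicate 3. The mean was 6.12 CPM ± 1.45 in ZEB1-KO and 12.2 CPM ± 3.61 in WT clones (SD, n = 3 each), and the log2 fold change was -0.997, its SE 0.32 and its 95% interval -1.72 to -0.27. The adjusted p was 0.166 in the quasi-likelihood test, 0.126 in the likelihood ratio test and 0.0608 with DESeq2, and the authors' deposited table gives 0.119, so that none called it. Leaving out WT replicate 2 gave the smallest of the leave-one-out values, a log2 fold change of -0.72. EGFR and BTC were thus 2 of 7 tested members with no overlap and a lower ZEB1-KO level, beside 11.7% of all tested genes.

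HBEGF, which encodes heparin-binding EGF-like growth factor, varied within both groups. It had 92, 108 and 236 counts in ZEB1-KO replicates 1, 2 and 3, against 466, 164 and 99 counts in WT replicates 1, 2 and 3. The levels of 4.59, 2.67 and 7.35 CPM in ZEB1-KO clones and 10.7, 5.06 and 4.01 CPM in WT clones overlapped. Its log2 fold change of -0.44 (SE 0.49, adjusted p = 0.671, quasi-likelihood test) rested on WT replicate 1, without which it was 0.12. AREG, which encodes amphiregulin, a ligand of EGFR, had 93, 186 and 161 counts in ZEB1-KO replicates 1, 2 and 3, against 242, 191 and 70 counts in WT replicates 1, 2 and 3. The means were 4.75 CPM ± 0.229 in ZEB1-KO and 4.76 CPM ± 1.67 in WT clones (SD, n = 3 each). Its log2 fold change of -0.0051 had a 95% interval of -0.80 to 0.79 (adjusted p = 0.995) and changed sign in 13 of 18 alternatives. The older genome build hg19, which the submitters' processing notes name, carries a near-identical second copy of AREG, so that its count is uncertain.

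**Figure D3:**
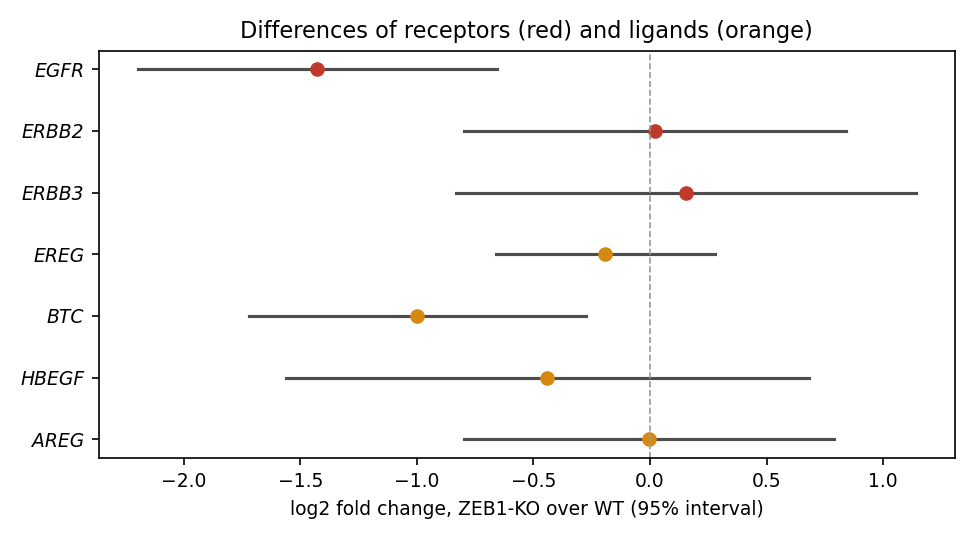
Log2 fold change of ZEB1-KO over WT clones for the 7 tested members (points) with 95% intervals from edgeR's quasi-likelihood fit (lines), receptors in red and ligands in orange. The intervals of EGFR and BTC lie below 0, before any adjustment over genes, and those of the other 5 members include 0.

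TGFA, which encodes transforming growth factor alpha, was too low for the test. It had 14, 1 and 22 counts in ZEB1-KO replicates 1, 2 and 3, against 1, 0 and 1 counts in WT replicates 1, 2 and 3. ZEB1-KO replicates 1 and 3, at 0.698 and 0.685 CPM, were above the floor, while ZEB1-KO replicate 2 and all WT libraries were below it. The groups overlapped through ZEB1-KO replicate 2, and DESeq2 gave an unadjusted p of 0.00461 but no adjusted p. NRG1, which encodes neuregulins that bind ERBB3 and ERBB4, had 0 counts in all ZEB1-KO libraries and 0, 2 and 0 counts in WT replicates 1, 2 and 3, and no difference was detectable at this depth. Among the remaining genes of the family, EPGN, which encodes the EGFR ligand epigen, had 3, 10 and 8 counts in ZEB1-KO replicates 1, 2 and 3, against 9, 46 and 19 counts in WT replicates 1, 2 and 3. EGF itself had 0 to 4 counts in ZEB1-KO and 3 to 10 counts in WT libraries. NRG4, a neuregulin that binds ERBB4, was tested and stood at 0.890 CPM ± 0.201 in ZEB1-KO and 0.641 CPM ± 0.198 in WT clones (SD, n = 3 each; adjusted p = 0.574).

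**Figure D4:**
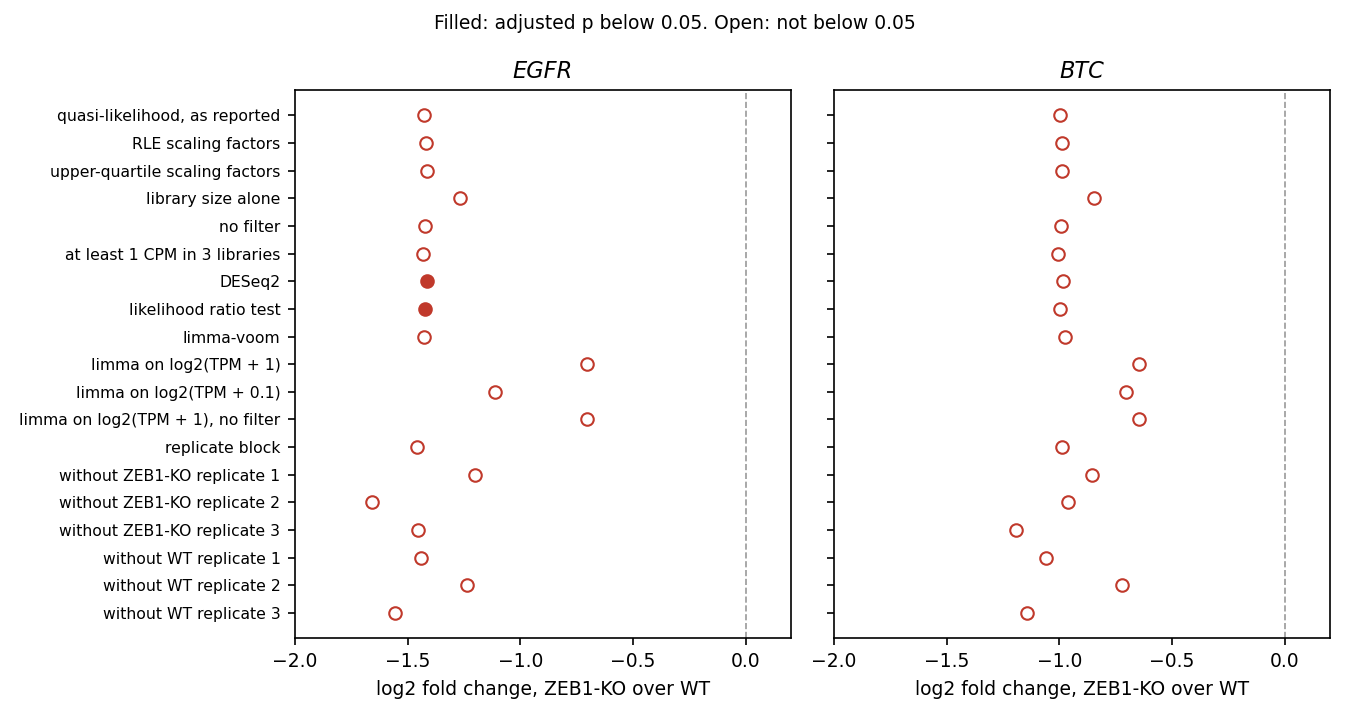
Log2 fold change of ZEB1-KO over WT clones for EGFR (left) and BTC (right) on the x axis, under the reported test and 18 alternatives on the y axis; filled points have an adjusted p below 0.05. All values lie below 0, between -1.66 and -0.71 for EGFR and between -1.19 and -0.65 for BTC, and filled points appear for EGFR with DESeq2 and the likelihood ratio test.

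ZEB1 binds the E-box CACCTG, and the promoters of the members were searched for it. The windows were the 250 bases before each start site in RefSeq's tables on build GRCh38.p14. Windows of 8 of 10 members were searched, and none of ERBB3 or NRG1. CACCTG or its reverse complement CAGGTG occurred in 17.5% of 35116 promoter windows of that length. Each of the 4 tested ligands held it once, whereas both windows of EGFR and the window of ERBB2 did not hold these letters. The windows of EGFR and of the tested ligands are shown because EGFR and BTC differed most, and EREG, AREG and HBEGF, which hold the same E-box as BTC, had intervals that included 0. Each runs 5′ to 3′ on the strand of its gene, with the E-box in capitals. The EGFR window shown, at the first of its start sites, is chr7:55018767-55019016 on the + strand, that of BTC chr4:74794524-74794773 on the - strand, that of EREG chr4:74364895-74365144 on the + strand, that of AREG chr4:74444886-74445135 on the + strand and that of HBEGF chr5:140346604-140346853 on the - strand.
EGFR: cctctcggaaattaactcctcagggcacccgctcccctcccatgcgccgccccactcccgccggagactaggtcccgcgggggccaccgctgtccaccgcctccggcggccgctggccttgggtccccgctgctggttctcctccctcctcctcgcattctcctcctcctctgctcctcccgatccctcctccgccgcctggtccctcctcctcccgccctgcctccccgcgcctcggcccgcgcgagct
BTC: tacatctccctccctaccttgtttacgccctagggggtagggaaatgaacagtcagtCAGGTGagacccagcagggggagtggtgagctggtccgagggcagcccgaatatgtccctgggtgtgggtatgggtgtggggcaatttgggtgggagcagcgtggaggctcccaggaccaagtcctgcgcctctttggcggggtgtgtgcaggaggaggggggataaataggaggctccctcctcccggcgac
EREG: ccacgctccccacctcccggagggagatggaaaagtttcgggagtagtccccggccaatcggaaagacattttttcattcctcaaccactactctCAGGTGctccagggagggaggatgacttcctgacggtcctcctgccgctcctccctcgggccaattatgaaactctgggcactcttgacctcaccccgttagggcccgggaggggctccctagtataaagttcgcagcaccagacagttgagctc
AREG: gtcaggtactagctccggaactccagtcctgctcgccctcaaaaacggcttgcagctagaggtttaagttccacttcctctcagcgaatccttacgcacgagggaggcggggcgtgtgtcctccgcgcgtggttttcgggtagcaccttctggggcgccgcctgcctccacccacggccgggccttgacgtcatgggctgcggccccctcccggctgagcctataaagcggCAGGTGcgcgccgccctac
HBEGF: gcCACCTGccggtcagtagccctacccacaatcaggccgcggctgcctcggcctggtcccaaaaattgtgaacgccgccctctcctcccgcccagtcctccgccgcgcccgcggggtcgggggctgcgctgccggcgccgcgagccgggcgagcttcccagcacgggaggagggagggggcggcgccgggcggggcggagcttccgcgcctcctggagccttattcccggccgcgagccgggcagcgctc
Counted back from the start site, the first base of the E-box was at position -193 in BTC, -155 in EREG, -19 in AREG and -248 in HBEGF. A match to these letters is no record of binding. The tested ligands, which hold the E-box, had log2 fold changes of -0.997 (BTC), -0.19 (EREG), -0.0051 (AREG) and -0.44 (HBEGF), none of them past the test. TGFA, not tested for its low counts, also holds CACCTG, at position -42 of 1 of its 2 windows. Its counts were 14, 1 and 22 in ZEB1-KO replicates 1, 2 and 3, against 1, 0 and 1 in WT replicates 1, 2 and 3, and the groups overlapped.

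EREG, AREG and BTC lie next to each other on chromosome 4, in this order among the tested genes of RefSeq's annotation. The genes around them had log2 fold changes of both signs. MTHFD2L, the tested gene on the EREG side, had a log2 fold change of -0.87 (SE 0.40, adjusted p = 0.299), and PARM1, the tested gene beyond BTC, one of 1.44 (SE 0.48, adjusted p = 0.179). PARM1, a mucin-like membrane protein gene, stood at 7.98, 11.5 and 7.56 CPM in ZEB1-KO replicates 1, 2 and 3 and 5.43, 1.39 and 3.08 CPM in WT replicates 1, 2 and 3, the opposite direction to BTC. Of 11 tested genes in the list of neighbours of this cluster, 6 were positive and 5 negative, with a median of 0.17, and none was called by the quasi-likelihood test, while the likelihood ratio test called 1 (RASSF6) and DESeq2 1 (PARM1). PARM1 and RASSF6 were the 2 with an unadjusted p below 0.05, and RASSF6 had 10, 22 and 12 counts in ZEB1-KO replicates 1, 2 and 3, against 3, 6 and 3 counts in WT replicates 1, 2 and 3.

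Beside EGFR on chromosome 7, SEC61G, which encodes a subunit of the channel that carries proteins into the endoplasmic reticulum, was also lower in every ZEB1-KO clone. It stood at 207.1, 128.2 and 172.4 CPM in ZEB1-KO replicates 1, 2 and 3 and 276.0, 396.2 and 290.5 CPM in WT replicates 1, 2 and 3. Its log2 fold change was -0.92 (SE 0.25, adjusted p = 0.128, quasi-likelihood test). On the other side LANCL2 and VOPP1, the next tested genes, had log2 fold changes of 0.21 and 0.047. Of 10 tested genes in the list of EGFR neighbours, 5 were positive and 5 negative, with a median of -0.031, and MRPS17, a mitochondrial ribosomal protein gene, was the other one with an unadjusted p below 0.05 (log2 fold change -0.51). The quasi-likelihood and likelihood ratio tests called 0 of these 10 genes and DESeq2 called 1, SEC61G. In 2 of the 10 the groups did not overlap and the ZEB1-KO level was lower, beside 11.7% of all tested genes. Over 643 tested genes of chromosome 7 the median log2 fold change was -0.10, against 0.0020 over the other chromosomes. The part of gene copy number in these differences was not tested.

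Around ERBB2 on chromosome 17 the neighbours lay on both sides of 0. MIEN1, the next tested gene, was lower at 120.1, 71.7 and 107.1 CPM in ZEB1-KO replicates 1, 2 and 3, against 196.2, 174.2 and 183.5 CPM in WT replicates 1, 2 and 3 (log2 fold change -0.89, adjusted p = 0.123). STARD3, a cholesterol-binding protein gene on the other side, was higher at 4.54, 11.1 and 5.79 CPM in ZEB1-KO clones and 3.37, 2.87 and 3.77 CPM in WT clones (log2 fold change 1.10, adjusted p = 0.195). PSMD3, a proteasome subunit gene further along, had a log2 fold change of 1.51 (adjusted p = 0.0980), and MED1, a Mediator subunit gene, one of -0.53. STARD3 and PSMD3 were highest in ZEB1-KO replicate 2, the clone in which ERBB2 was also highest, whereas MIEN1 was lowest there. Genes outside this list, such as SRC (6.99 CPM) and ARAF (30.5 CPM), were also highest in that clone, and the cause was not tested. None of the 11 tested genes in this list passed the quasi-likelihood test. There were 4 at an unadjusted p below 0.05, 1 called by the likelihood ratio test and 2 called by DESeq2, beside 17.7%, 4.52% and 7.12% of all genes.

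The wider pathway was described from 6 lists of other ligands, ligand release, receptor dampening, adaptors, the RAS and MAP kinase cascade, and transcriptional output of ERK. These held 104 genes besides the members, of which 91 were tested. In the quasi-likelihood test 0 of 91 passed 0.05, whereas 11 had an unadjusted p below 0.05, beside 17.7% of all tested genes. The likelihood ratio test called 4 (IER3, RHBDF2 and SRC higher, STAT3 lower), and DESeq2 called 7, among them these 4 and, as higher, ARAF and EGR1. Over all genes these tests called 4.52% and 7.12%. They split into 46 positive and 45 negative log2 fold changes with a median of 0.021, beside a median of -0.0082 over all tested genes.

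**Figure D5:**
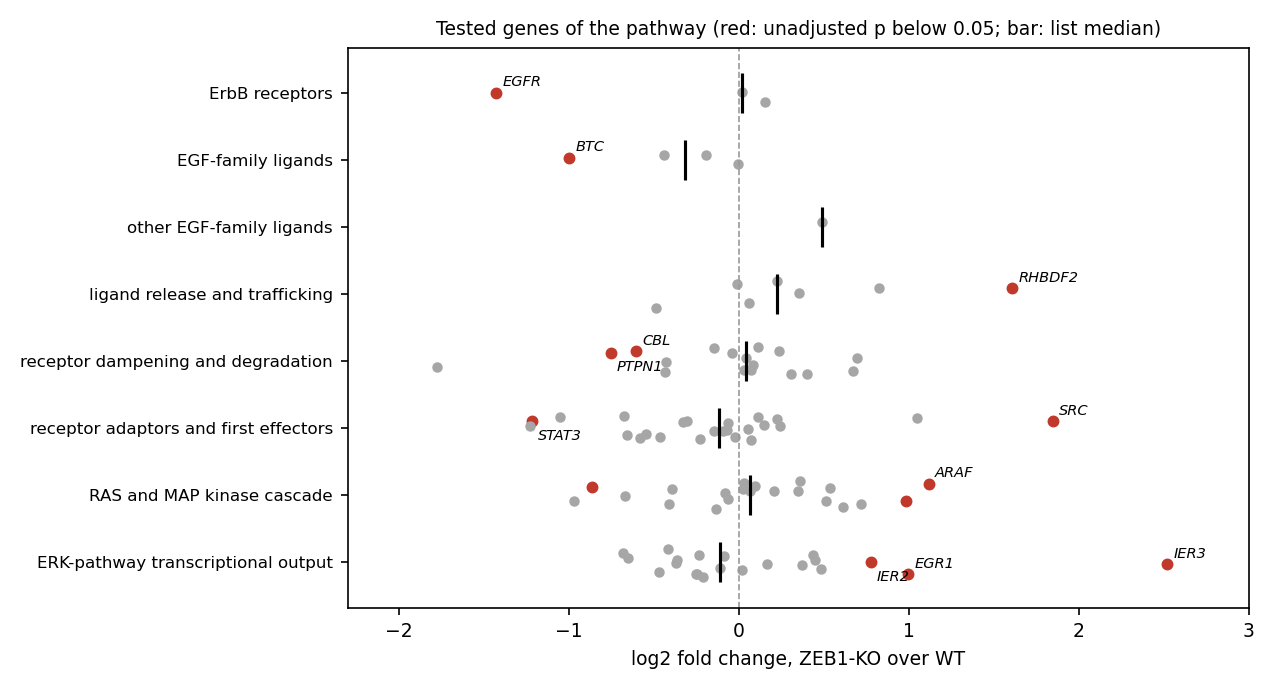
Log2 fold change of ZEB1-KO over WT clones (x axis) for each tested gene of the pathway lists (y axis); red points, some of them with their gene's name, have an unadjusted p below 0.05 and vertical bars mark the list median. List medians lie between -0.32 (EGF-family ligands) and 0.49 (NRG4 alone among other ligands), and red points appear on both sides of 0.

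Release of the ligands depends on the proteases ADAM10 and ADAM17 and on the iRhom proteins that carry ADAM17 to the surface. RHBDF2, which encodes iRhom2, was higher in every ZEB1-KO clone, at 14.8, 18.7 and 8.34 CPM in ZEB1-KO replicates 1, 2 and 3 against 6.28, 3.92 and 3.48 CPM in WT replicates 1, 2 and 3. The log2 fold change was 1.61 (SE 0.38), and the adjusted p was 0.111 in the quasi-likelihood test, 0.0147 in the likelihood ratio test and 0.0025 with DESeq2. The authors' deposited table gives 1.60 and an adjusted p of 0.0147. The proteases themselves were abundant and overlapped between groups. ADAM10 averaged 204.3 CPM ± 26.4 in ZEB1-KO and 205.9 CPM ± 40.8 in WT clones (SD, n = 3 each), for which the log2 fold change was -0.011, and the protease gene NRD1, whose product binds heparin-binding EGF-like growth factor, had a log2 fold change of 0.060. Of 7 tested genes of this list, 5 were positive. In 2 of the 7 the groups did not overlap in CPM and the ZEB1-KO level was higher, beside 11.9% of all tested genes.

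Genes that dampen the receptors lay on both sides, with 10 of 17 tested members positive and a median of 0.043. PTPN1, a phosphatase that removes phosphate from EGFR, stood at 8.33, 11.9 and 11.7 CPM in ZEB1-KO replicates 1, 2 and 3 and 18.8, 21.1 and 13.9 CPM in WT replicates 1, 2 and 3. CBL, a ubiquitin ligase that marks activated EGFR for degradation, stood at 11.5, 12.5 and 9.37 CPM in ZEB1-KO clones and 16.03, 14.0 and 20.7 CPM in WT clones. Their log2 fold changes were -0.75 and -0.60, with quasi-likelihood adjusted p-values of 0.207 and 0.272. For both genes every ZEB1-KO clone lay below every WT clone, and neither gene was called by the likelihood ratio test or DESeq2. Of the 17 tested genes, 4 had no overlap and a lower ZEB1-KO level and 1 a higher one, beside 11.7% and 11.9% of all tested genes.

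Among 24 tested adaptors and first effectors, 8 were positive and 16 negative. SRC, a tyrosine kinase that acts beside EGFR, had 46, 283 and 116 counts in ZEB1-KO replicates 1, 2 and 3 against 71, 34 and 22 counts in WT replicates 1, 2 and 3, and its levels were 4.30 CPM ± 2.42 in ZEB1-KO and 1.19 CPM ± 0.387 in WT clones (SD, n = 3 each). The log2 fold change of 1.85 (SE 0.49) had an adjusted p of 0.123 in the quasi-likelihood test, 0.0294 in the likelihood ratio test and 0.0081 with DESeq2. STAT3, a transcription factor downstream of cytokine and growth factor receptors, stood at 32.4, 42.3 and 42.5 CPM in ZEB1-KO clones and 68.9, 65.4 and 138.2 CPM in WT clones. Its log2 fold change of -1.22 (adjusted p = 0.123, 0.0309 and 0.0164 in the same 3 tests) was -0.78 without WT replicate 3, the highest of the group.

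In the RAS and MAP kinase cascade, 13 of 21 tested members were positive. ARAF, a RAF kinase, had a log2 fold change of 1.12 (SE 0.32), with means of 23.4 CPM ± 6.15 in ZEB1-KO and 10.8 CPM ± 3.61 in WT clones (SD, n = 3 each). It was called by DESeq2 (adjusted p = 0.0264) and not by the quasi-likelihood test (adjusted p = 0.141). Its groups did not overlap, with 20.2, 30.5 and 19.5 CPM in ZEB1-KO replicates 1, 2 and 3 against 7.40, 14.6 and 10.4 CPM in WT replicates 1, 2 and 3. Of the 21 tested genes, 3 had no overlap and a higher ZEB1-KO level and 3 a lower one, beside 11.9% and 11.7% of all tested genes.

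Transcripts known as output of ERK lay on both sides of 0. Of 21 tested, 9 were positive and 12 negative, with a median log2 fold change of -0.11. They ran between -0.68 (DUSP6, an ERK phosphatase gene) and 2.52 (IER3). The 3 with an unadjusted p below 0.05 in the quasi-likelihood test were the immediate early genes IER3, EGR1 and IER2, beside 17.7% of all tested genes. IER3 had 455, 1756 and 601 counts in ZEB1-KO replicates 1, 2 and 3, against 129, 240 and 110 counts in WT replicates 1, 2 and 3, a log2 fold change of 2.52 (SE 0.45, adjusted p = 0.0834 in the quasi-likelihood test and 0.000116 in the likelihood ratio test). EGR1, a zinc-finger factor, and IER2 had log2 fold changes of 0.996 and 0.78, with adjusted p-values of 0.144 and 0.150 in the quasi-likelihood test. Each of these 3 genes was higher in every ZEB1-KO clone than in every WT clone. Of the 21 tested, 4 had no overlap and a higher ZEB1-KO level and 1 a lower one, beside 11.9% and 11.7% of all tested genes.

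The genes whose levels across the 6 libraries most resembled those of the 2 members with the highest mean CPM, which is not scaled to transcript length, were found by Pearson correlation of log2 CPM, as a description of points that share library size scaling. For EREG these were ZNF37A, RPL36A and ITPR1, each with r of 0.99. For ERBB2 they were DSG3, LOC729603 and MIRLET7BHG, each with r of 0.99. These were low, at 22 to 60, 25 to 67 and 29 to 98 counts over the 6 libraries. Of 13652 genes compared, 67 for EREG and 150 for ERBB2 had an r above 0.9. How many unrelated genes would pass 0.9 over 6 libraries was not estimated.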

How the data were processed

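RNA-seq libraries were made from clones of MiaPaCa2 (3 ZEB1-KO, 3 WT), with groups and replicate numbers from the sample titles. The labels give no culture days or library batches. The deposited files hold unnormalized counts for each gene symbol, TPM values for part of the genes, and the authors' edgeR results for that part, with log2 fold changes, average log2 CPM, a likelihood ratio score and p-values, per the file headers. The submitters' processing notes name TopHat2 (2.1.0), HTSeq (0.6.1), edgeR (3.2.2) and the builds hg19 and GRCh37. No source used here gives the strand setting, the authors' gene filter or the gene lengths. SMART-Seq2 as generally run does not mark strand and uses no molecular identifiers, and the labels' protocols name neither.

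The deposited counts were tested with edgeR 4.0.16 in R 4.3.3: filterByExpr (minimum count 10, total 15), TMM factors, glmQLFit and glmQLFTest on the group alone, two-sided, with Benjamini-Hochberg adjustment over 13659 genes and a threshold of 0.05. SEs derive from the F statistic, and 95% intervals are not adjusted over genes. Alternatives were other scalings and filters, DESeq2 1.42.0, edgeR's likelihood ratio test, limma 3.58.1 (voom, and log2 of TPM plus 1 or 0.1), a replicate block, and leaving out each library. An exact permutation test of 3 against 3 clones cannot go below p = 0.1. Scripts were tested on simulated data. No library was a copy of another (lowest chi-square per gene between 2 libraries, 117). Same-numbered clones were not treated as pairs in the reported test. The correlations of their deviations from the group means were 0.022, 0.0071 and 0.22, against -0.12 to 0.10 for clones of unlike number. The members and the gene lists were chosen with earlier results of these data known. From each list, genes past the threshold were named first, then up to 5 with an unadjusted p below 0.05, or the 2 most abundant where fewer than 2 qualified. RefSeq names placed 97.6% of tested genes on a chromosome. Protein sequences were not used here, and some genes that the rule names are not reported here.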

Additional observations from a re-analysis of the deposited data

How the results depend on the processing

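EGFR and BTC stayed below 0 under all 18 alternatives, and BTC and the other members except EGFR were called by none of them. The count of called members, 0 in the reported test, was 1 (EGFR) with DESeq2 and with the likelihood ratio test, and 0 with every other alternative and every library left out. The count over all genes, 24, was 134 without a filter, 935 with DESeq2, 617 with the likelihood ratio test, and 101, 94 and 80 with limma on log2 TPM plus 1, plus 0.1 and plus 1 without a filter, and 5 to 25 when 1 library was left out (6 without ZEB1-KO replicate 1, and 13, 6 and 5 without WT replicates 1, 2 and 3). The split was 16 higher and 8 lower in the reported test and 82 higher and 19 lower, 76 and 18, and 63 and 17 in the 3 limma fits, 11 and 9 with the replicate block, and 3 higher and 10 lower without WT replicate 1. Of the other pathway genes, 0 were called in the reported test, 7 with DESeq2, 4 with the likelihood ratio test, and 1 (IER3) without a filter and with each of the 3 limma fits on TPM (1, 1 and 1). With the replicate number as a block, 20 genes and 0 members were called. The labels do not say whether the numbers pair the clones.

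Library size alone moved the median of all genes to 0.14, and the 3 TPM fits to 0.23, 0.27 and 0.20. Members near 0 changed sign. ERBB2 was -0.038 with limma-voom and -0.031 with the block, and -0.33 to 0.28 with 1 library left out; ERBB3 was -0.12 to 0.41 with 1 library left out. AREG was 0.0039 with RLE, 0.00098 with upper-quartile scaling, 0.14 with library size alone, 0.0043 with DESeq2, 0.037 with limma-voom, 0.24, 0.33 and 0.24 with TPM, 0.059 with the block, and -0.26 to 0.18 with 1 library left out. EREG was 0.088, 0.090 and 0.088 with TPM. HBEGF was -0.87 to 0.12 with 1 library left out. ADAM10 was 0.0049 with upper-quartile scaling, 0.14 with library size alone, 0.0033 with limma-voom, 0.27, 0.27 and 0.27 with TPM, 0.0012 with the block, and -0.15 to 0.094 with 1 library left out, and NRD1 was -0.095 to 0.20. These values were not called in either direction, and the cause was not tested. ERBB4 and NRG1, with at most 2 counts, are limited by depth, and TGFA by its low counts in 4 of 6 libraries.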
